A study of Mus musculus with 15 samples.

Results

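Adipocyte and lipid storage genes were followed through the RNA-seq libraries of mouse mammary glands and mammary tumors. The set holds 39 genes chosen by symbol, namely genes of white and brown adipocytes and of the making and breakdown of stored fat, and all 39 were found among the 51826 genes of the tables. The study compared tumors of Trim24COE mice, in which Cre removes a stop cassette ahead of a Flag-tagged murine Trim24 cDNA, with mammary glands of mice that carry MMTV-Cre alone. The MMTV promoter drives Cre mainly in mammary epithelium, so fat cells are not the cells in which the transgene was meant to be switched on, and the controls carry the Cre but not the Trim24 cassette.

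The Trim24COE tumors were metaplastic carcinosarcomas from mice 64, 567 and 897 (n = 3) and carcinomas from mice 89, 273_5 and 3956 (n = 3). They were set beside 4 disease-free control glands (mice 133, 392, 417_3 and 517_3) and 3 carcinomas (mice 219, FVB001 and FVB002, called non-TRIM24 tumors) that the labels give as spontaneous, not TRIM24-expressing and of unknown genotype. Tumor classes follow the labels. In the study's list of tumors, 89 and 3956 were read as carcinosarcoma by the first pathologist and as carcinoma by the second. Tumor 567 was read as spindle cell carcinoma by the first and as carcinosarcoma by the second. That list also holds a call based on RNA-seq, which was carcinoma for mouse 89. The labels give the strain as FVB, and the series' design gives FVB/129. The study describes its cohort as virgin females, and ages of single mice were not used. Gland 133 and carcinoma 3956 each have a repeat library in batch 2, which also holds every non-TRIM24 tumor. There were thus 15 libraries of 13 mice in 2 batches, which match the 2 deposited sets of TPM values. Values are TPM, the share of transcripts in a library after correction for transcript length, which sums to the same total in each library, so the levels of different genes can be compared but the depth behind them is unknown. The level of Trim24 was 14.5 to 22.4 TPM over the glands, 10.6 to 24.1 TPM over the Trim24COE tumors and 5.34 to 10 TPM over the others. The transgenic tumors thus overlapped the glands in TPM, and they are called Trim24COE as labelled. By other methods the study reports higher levels in Trim24COE tumors than in Cre-only glands, for TRIM24 and Flag protein by tissue staining and for Trim24 RNA by qRT-PCR. The study presents its qRT-PCR results, Trim24 among them, as predicted by its RNA-seq, whereas the TPM values given here overlapped.

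The mammary epithelium lies in a fat pad, and a whole gland therefore carries the RNA of many adipocytes. A white adipocyte takes up fatty acids released from circulating lipoproteins, joins them to glycerol as triglyceride, keeps the triglyceride in a single large droplet coated with perilipin, and releases it again by lipolysis. It also secretes hormones such as adiponectin and leptin. Brown and beige adipocytes hold many small droplets and burn fat through uncoupling protein 1. Mammary epithelium makes fatty acids of its own, mostly for milk, so enzymes of fatty acid synthesis are shared by both kinds of cell. In whole-tissue RNA, fewer adipocytes and less of a transcript in each adipocyte cannot be told apart.

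Promoters of 5 members are shown because their genes stand for the patterns described below: Adipoq, Plin1 and Pparg for the mature fat cell, and Fasn and Thrsp for fatty acid synthesis. Each is the 160 bases just before a transcription start in the RefSeq table (GRCm38.p6), written 5′ to 3′ on the gene's strand, and for Pparg the most downstream of the listed starts was taken. Capitals mark matches, on either strand, to CCAAT (the CCAAT box, read ATTGG on the other strand) and to TTGCNNAA (a C/EBP motif). The C/EBP match is the only one in Plin1 and the last one in Pparg, and all others are CCAAT.
Adipoq (chr16:23146376-23146535, + strand): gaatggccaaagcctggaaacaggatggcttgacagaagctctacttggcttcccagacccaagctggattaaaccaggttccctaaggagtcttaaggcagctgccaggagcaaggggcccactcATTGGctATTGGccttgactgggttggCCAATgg
Plin1 (chr7:79732777-79732936, - strand): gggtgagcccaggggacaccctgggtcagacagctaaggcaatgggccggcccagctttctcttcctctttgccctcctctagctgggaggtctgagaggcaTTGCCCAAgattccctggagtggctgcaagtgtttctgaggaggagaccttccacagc
Pparg (chr6:115421906-115422065, + strand): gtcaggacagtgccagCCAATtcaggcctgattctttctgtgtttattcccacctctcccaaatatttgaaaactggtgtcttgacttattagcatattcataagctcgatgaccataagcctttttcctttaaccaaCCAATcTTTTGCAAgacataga
Fasn (chr11:120824548-120824707, - strand): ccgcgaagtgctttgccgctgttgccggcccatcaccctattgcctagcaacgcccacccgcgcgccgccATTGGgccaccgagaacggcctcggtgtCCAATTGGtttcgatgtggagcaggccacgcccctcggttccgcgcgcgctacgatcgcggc
Thrsp (chr7:97417551-97417710, - strand): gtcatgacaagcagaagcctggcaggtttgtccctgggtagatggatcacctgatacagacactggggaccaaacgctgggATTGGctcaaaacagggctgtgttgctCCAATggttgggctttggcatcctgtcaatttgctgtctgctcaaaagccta

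Promoters of 29 of the 39 members were in the table, with 39 starts in all. Searching both strands of the 250 bases before each start, CCAAT was found in 28.2% of the member promoters and 33.8% of all 32851 promoters, and TTGCNNAA in 12.8% and 9.56%. The direct repeat bound by PPARgamma with its partner RXR (DR1) was found in none of the 39 and in 0.338% of all. CACGTG (an E-box) was found in 5.13% of member promoters and 6.02% of all, TATAAA (the TATA box) in 7.69% and 12.4%, and TCACNCCAC (a sterol response motif) in 2.56% and 1.05%. Matches of different motifs may overlap, and these shares describe letters in a window, not binding.

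The 39 genes together filled 5.32% and 5.59% of the TPM of glands 133 and 392, but 0.389% and 0.382% in glands 417_3 and 517_3. They filled 0.0582% to 0.101% of the carcinosarcoma libraries, 0.483%, 0.231% and 0.0629% of carcinomas 89, 273_5 and 3956, and 7.89%, 3.99% and 0.122% of tumors FVB001, FVB002 and 219. So the control glands did not form an even group, and neither did the non-TRIM24 tumors. Glands 133 and 392 were both above glands 417_3 and 517_3 for 33 of the 39 genes, an order that 26.2% of the 16775 genes with at least 1 TPM in 3 libraries showed. The highest gland was more than 10-fold above the lowest for 24 members and more than 100-fold for 10, against 12.4% and 4.8% of those genes.

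Glands 417_3 and 517_3 were more alike than repeat libraries of one mouse. Their libraries had a Spearman correlation of 0.979 across the 16775 genes, and 2.92% of genes differed by more than 2-fold, fewer than between the repeat libraries of gland 133 (4.29%) or of carcinoma 3956 (3.48%), while other pairs of the same group differed in 8.81% to 40.5% of genes. The labels name them as separate mice and they were counted as such, and the main counts are also given with their mean taken as 1 gland. Sums of epithelial markers were in the opposite order in the glands: the summed level of 8 luminal epithelial markers was 955 and 1548 TPM in glands 133 and 392 and 4781 and 5020 TPM in 417_3 and 517_3, and that of 6 basal markers was 269 and 353 TPM against 3458 and 3650 TPM. Luminal Prlr (19.4 and 50.3 TPM against 84.4 and 45.5 TPM) and basal Oxtr (22.7 and 26.1 TPM against 25.1 and 25.9 TPM) did not share this order. No luminal or basal marker was at 0 in any gland. The sums of 3 other marker lists were in the same order as the fat cell genes. Skeletal muscle markers (6 genes) summed to 409 and 2089 TPM in glands 133 and 392 against 14.8 and 14.3 TPM in 417_3 and 517_3. Fibroblast markers summed to 707 and 1176 TPM against 527 and 514 TPM, and macrophage markers to 184 and 462 TPM against 136 and 152 TPM. Single markers could differ from their sum: Msr1 of the macrophage list was 1.64 and 2.11 TPM against 3.02 and 2.22 TPM. Endothelial sums (260 and 407 TPM against 417 and 375 TPM) and lymphocyte sums (22.6 and 84.7 TPM against 38 and 37.5 TPM) did not share the order. The part of these marker differences in the results on tumors and glands was not tested.

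**Figure D1:**
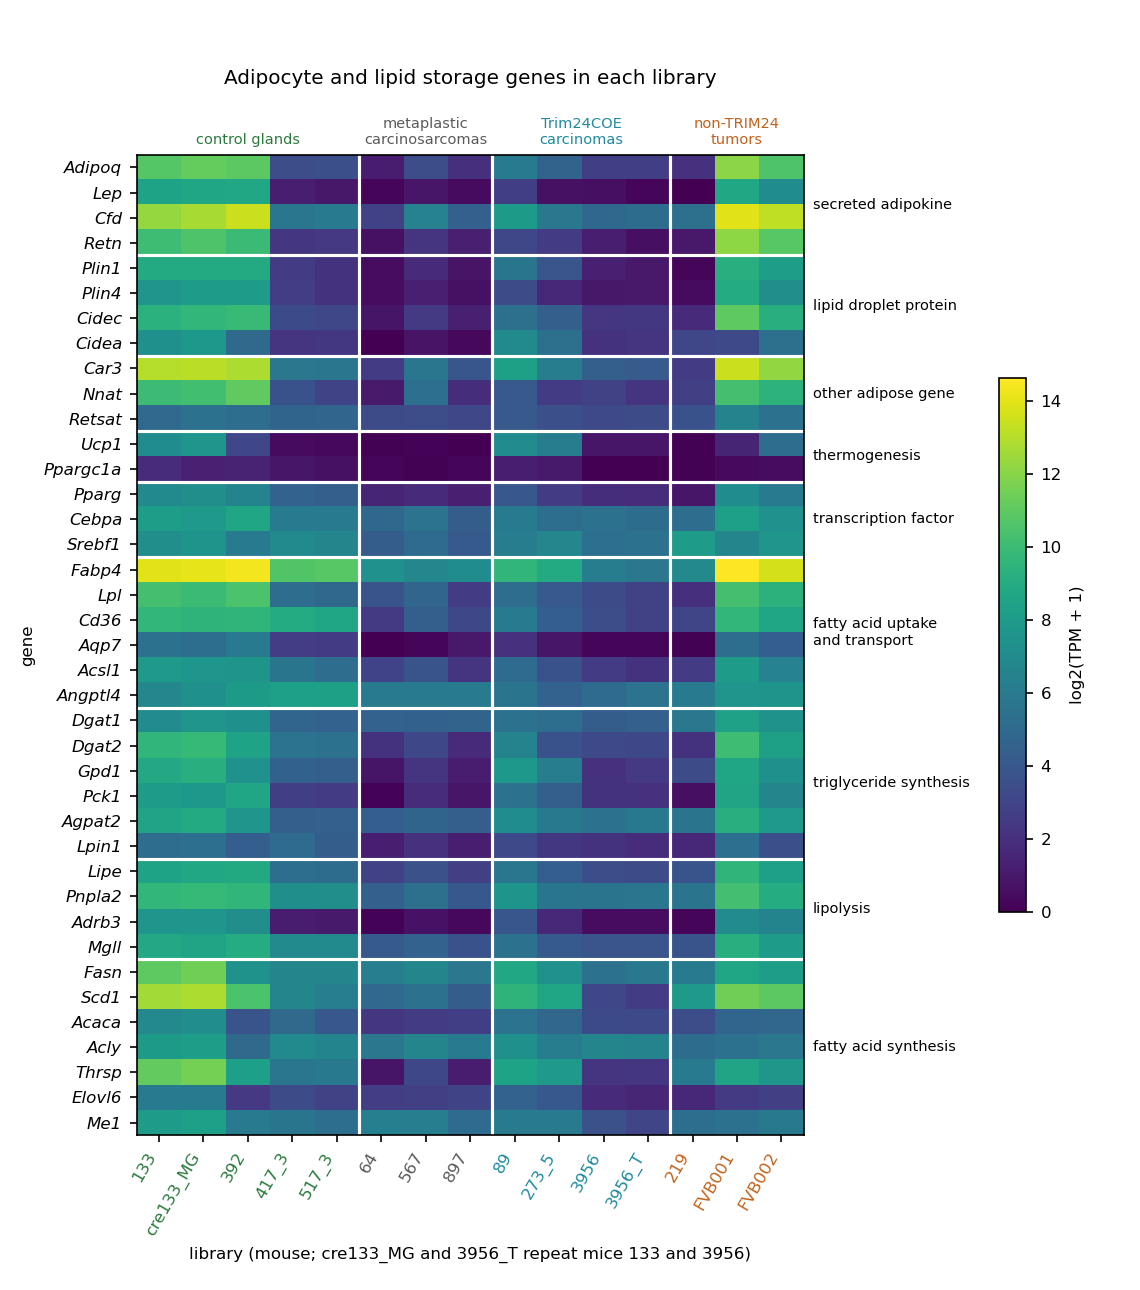
Level of each of the 39 genes (rows, grouped by role) in each of the 15 libraries (columns, grouped and coloured by sample group), as log2(TPM + 1). Glands 133 and 392 and tumors FVB001 and FVB002 are bright through most rows, while glands 417_3 and 517_3, tumor 219 and the Trim24COE tumors are dark, with carcinomas 89 and 273_5 in between for many rows.

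Adiponectin (Adipoq), the most abundant hormone of the fat cell, stood at 1718, 1946, 10.2 and 10.8 TPM in glands 133, 392, 417_3 and 517_3. It was 1.27, 10 and 2.99 TPM in carcinosarcomas 64, 567 and 897, 68.2, 23.8 and 5.45 TPM in carcinomas 89, 273_5 and 3956, and 3.31, 4315 and 1525 TPM in tumors 219, FVB001 and FVB002. Carcinomas 89 and 273_5 were thus above glands 417_3 and 517_3, and the groups overlapped (log2 fold change -3.83, standard error 1.61, adjusted p = 0.124 between Trim24COE tumors and glands). Leptin (Lep), the hormone that reports fat mass to the brain, was 355, 439.7, 1.3 and 0.95 TPM in the glands in the same order, and in the 6 Trim24COE tumors it ranged from 0.17 to 5.5 TPM with only carcinoma 89 above 1 TPM. Adipsin (Cfd, complement factor D) was 5043, 11076, 52.2 and 60.8 TPM in the glands, 6.04, 90.5 and 21.5 TPM in the carcinosarcomas and 250.4, 57.7 and 30.2 TPM in the carcinomas. Resistin (Retn) was 1074, 991, 3.92 and 4.37 TPM in the glands and 0.55 to 7.79 TPM in the Trim24COE tumors. None of these 4 adipokines passed the test between Trim24COE tumors and glands: the fitted differences ran from -4.34 to -3.83 on the log2 scale, each with a standard error from 1.51 to 1.61.

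Among proteins of the lipid droplet, perilipin 1 (Plin1), which coats the droplet of mature adipocytes, was 496, 499.6, 4.87 and 3.5 TPM in glands 133, 392, 417_3 and 517_3, 0.38, 2.48 and 0.74 TPM in the carcinosarcomas and 49.6, 13.6 and 1.47 TPM in the carcinomas. Its groups overlapped and it did not pass the test (log2 fold change -3.35, standard error 1.55, adjusted p = 0.16). Cidec, which fuses small droplets into a large one, was 641, 963, 8.8 and 7.78 TPM in the glands and 0.79 to 41.5 TPM in the Trim24COE tumors, and did not pass either (log2 fold change -3.62, standard error 1.46, adjusted p = 0.11). Plin4, a further droplet coat protein, was 197, 266, 5.35 and 3.42 TPM in the glands against 0.38 to 9.23 TPM in the tumors, with carcinoma 89 alone above the lower glands, and it was lower in the tumors (-3.74 on the log2 scale, adjusted p = 0.0473). Of the other adipose genes, carbonic anhydrase 3 (Car3), an abundant adipocyte enzyme, was 8212, 7387, 55.9 and 52.7 TPM in the glands and 4.84 to 323 TPM in the tumors. Neuronatin (Nnat) was 1052, 2100.4, 11.7 and 7.08 TPM and 1.06 to 39.7 TPM, and its highest tumor was carcinosarcoma 567 rather than carcinoma 89. Retsat, which saturates retinol, spread far less among the glands, at 30.6, 36.5, 24.9 and 26.3 TPM, and every tumor was below every gland at 7.74 to 15.7 TPM (log2 fold change -1.46, standard error 0.24, adjusted p = 0.00281).

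Across the set, 15 of 39 members were lower in the 6 Trim24COE tumors than in the 4 control glands by limma with Benjamini-Hochberg adjustment at 0.05, and none was higher. Of all 15196 genes tested, 9.13% were called lower and 7.96% higher. The median fitted log2 fold change of the 39 was -3.05, beside -0.04 over all genes, and all 39 fitted values were below 0. Every tumor was below every gland for 9 members (Fabp4, Pparg, Cd36, Aqp7, Acsl1, Mgll, Lpin1, Angptl4 and Retsat), and 7.2% of all genes tested showed that order. The same 9 members stayed called whichever of the 10 mice was dropped. Pnpla2 stayed called in 8 of the 10 fits, Dgat2 in 6, Lipe and Cebpa in 5, and Lpl and Plin4 in 3. Without gland 133 or without gland 392 the count fell to 9, and with 417_3 and 517_3 as 1 gland it was 17. The members called were spread unevenly over the roles, as assigned to the genes for this report. They took in all 6 genes of fatty acid uptake and transport and 3 of 4 of lipolysis, 2 of 3 transcription factors, 2 of 6 of triglyceride synthesis, 1 of 4 droplet proteins and 1 of 3 other adipose genes, but none of 4 adipokines, none of 7 genes of fatty acid synthesis and neither gene of thermogenesis.

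**Figure D2:**
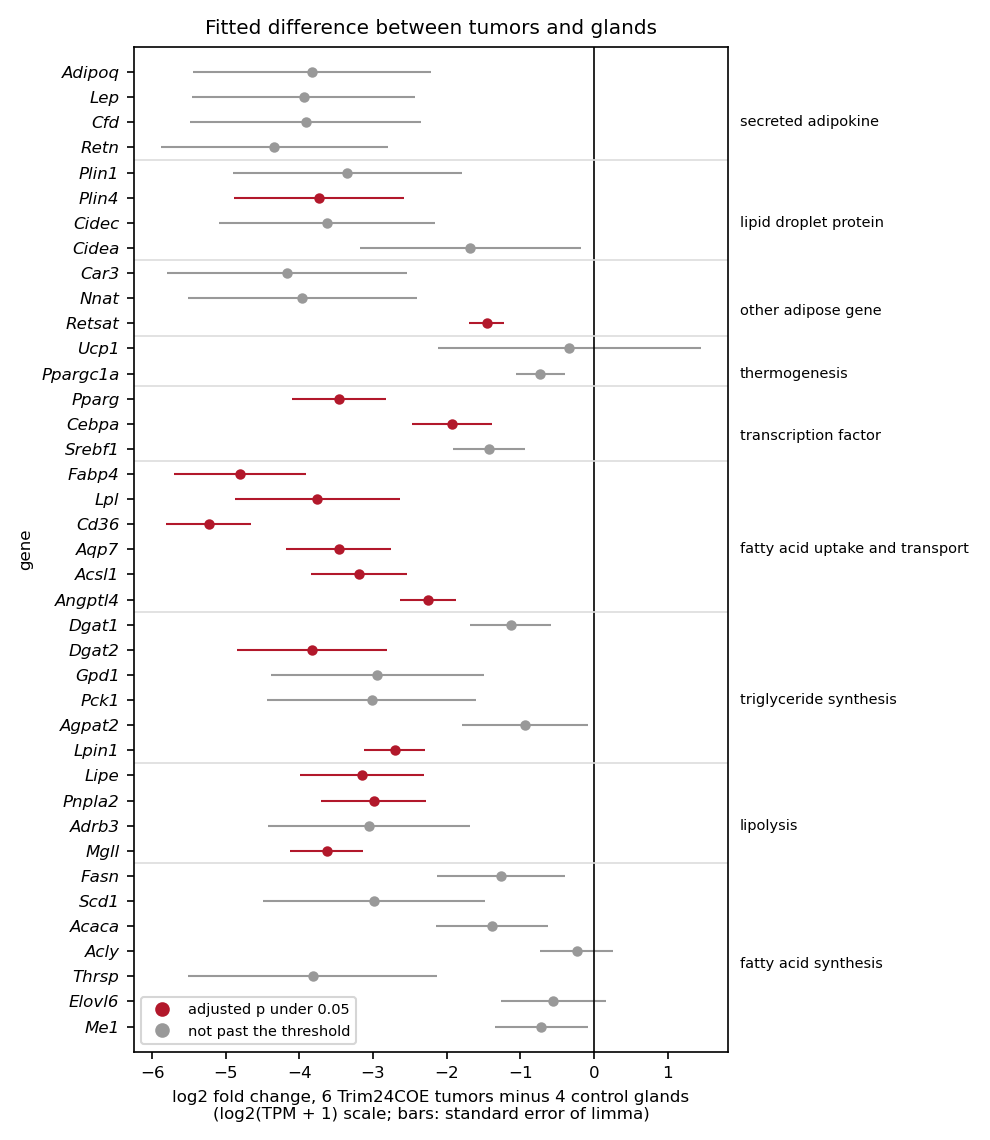
Fitted log2 fold change of each member between 6 Trim24COE tumors and 4 control glands, on the log2(TPM + 1) scale, with the standard error as a bar and members past an adjusted p of 0.05 in red. All 39 points lie below 0, and the 15 red points are led by Cd36, while the adipokines have low points with wide bars.

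All 6 members grouped here under fatty acid uptake and transport were called lower, though no test compared the roles. The grouping is broad: it takes in Angptl4, an inhibitor of lipoprotein lipase, and Aqp7, a glycerol channel. CD36, the fatty acid translocase, stood at 839.5, 756, 510.3 and 408 TPM in glands 133, 392, 417_3 and 517_3, at 4.6, 20.3 and 8.13 TPM in carcinosarcomas 64, 567 and 897, and at 66, 19.9 and 10.3 TPM in carcinomas 89, 273_5 and 3956. The lowest gland was about the level of tumor FVB002 (408 TPM) and far above every Trim24COE tumor (log2 fold change -5.23, standard error 0.58, adjusted p = 0.00041). The Cd36 level spread 2.06-fold over the 4 glands, so that it was 0.389 to 0.489 of the Adipoq level in glands 392 and 133 and 38 to 50.3 times the Adipoq level in glands 517_3 and 417_3. Cd36 is also made by endothelial cells and macrophages. The summed level of 6 endothelial markers was 260 to 417 TPM in the glands and 58 to 356 TPM in the Trim24COE tumors, 3 of the 6 being lower in the tumors, whereas the 6 macrophage markers summed to 136 to 462 TPM and 591 to 1835 TPM, 5 of 6 being higher. No endothelial or macrophage marker was at 0 in any library, and their part in the Cd36 difference was not tested.

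Angptl4, a secreted inhibitor of lipoprotein lipase that is induced by fasting and by low oxygen, was the only member whose level was higher in glands 417_3 and 517_3 than in 133 and 392. It was 108, 252, 304 and 312 TPM in the glands, 62.4, 63 and 65.8 TPM in the carcinosarcomas and 48.3, 23.5 and 34 TPM in the carcinomas, and the tumors lay below all the glands (log2 fold change -2.25, standard error 0.38, adjusted p = 0.00305). Fabp4, the fatty acid binding protein that makes up a large share of adipocyte RNA, was 15809, 21653, 1644 and 1830.2 TPM in the glands, 169, 107 and 138 TPM in the carcinosarcomas and 799, 487 and 68.5 TPM in the carcinomas (log2 fold change -4.81, standard error 0.89, adjusted p = 0.00524). Even the lower glands therefore held more than 2 times the Fabp4 level of carcinoma 89. Acsl1, which activates fatty acids with coenzyme A, was 231, 189, 50.7 and 36.2 TPM in the glands and 3.62 to 34.2 TPM in the tumors (log2 fold change -3.18, standard error 0.65, adjusted p = 0.00853). Aqp7, the channel through which glycerol leaves the adipocyte, was 44.6, 62, 5.43 and 5.11 TPM and 0.01 to 3.28 TPM (log2 fold change -3.46, standard error 0.71, adjusted p = 0.0087). Lipoprotein lipase (Lpl), which frees fatty acids from lipoproteins, was 1296, 1427, 36 and 29.1 TPM in the glands and 4.78 to 37.2 TPM in the tumors, with carcinoma 89 above both lower glands, and its call (adjusted p = 0.041) was among the least steady of the 15.

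PPARgamma (Pparg), the nuclear receptor that directs adipocyte differentiation, stood at 119.9, 98, 23.2 and 20.4 TPM in glands 133, 392, 417_3 and 517_3, at 1.86, 2.44 and 1.45 TPM in the carcinosarcomas and at 15, 4.89 and 2.72 TPM in the carcinomas. All tumors were below all glands (log2 fold change -3.47, standard error 0.64, adjusted p = 0.00511), and the glands spread 5.89-fold for Pparg where they spread 192-fold for Adipoq. Cebpa, its partner in differentiation, was 289, 387, 64.7 and 61.8 TPM in the glands and 18.9 to 63.6 TPM in the tumors, and fell by 1.93 on the log2 scale (adjusted p = 0.0336). Srebf1, which switches on lipid synthesis genes, did not follow the adipocyte genes in the glands. It was 151, 67.8, 127 and 99.2 TPM there, 19.2, 34.1 and 16.7 TPM in the carcinosarcomas and 73.2, 108 and 39.8 TPM in the carcinomas (adjusted p = 0.0689 for all 6 tumors against the glands).

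**Figure D3:**
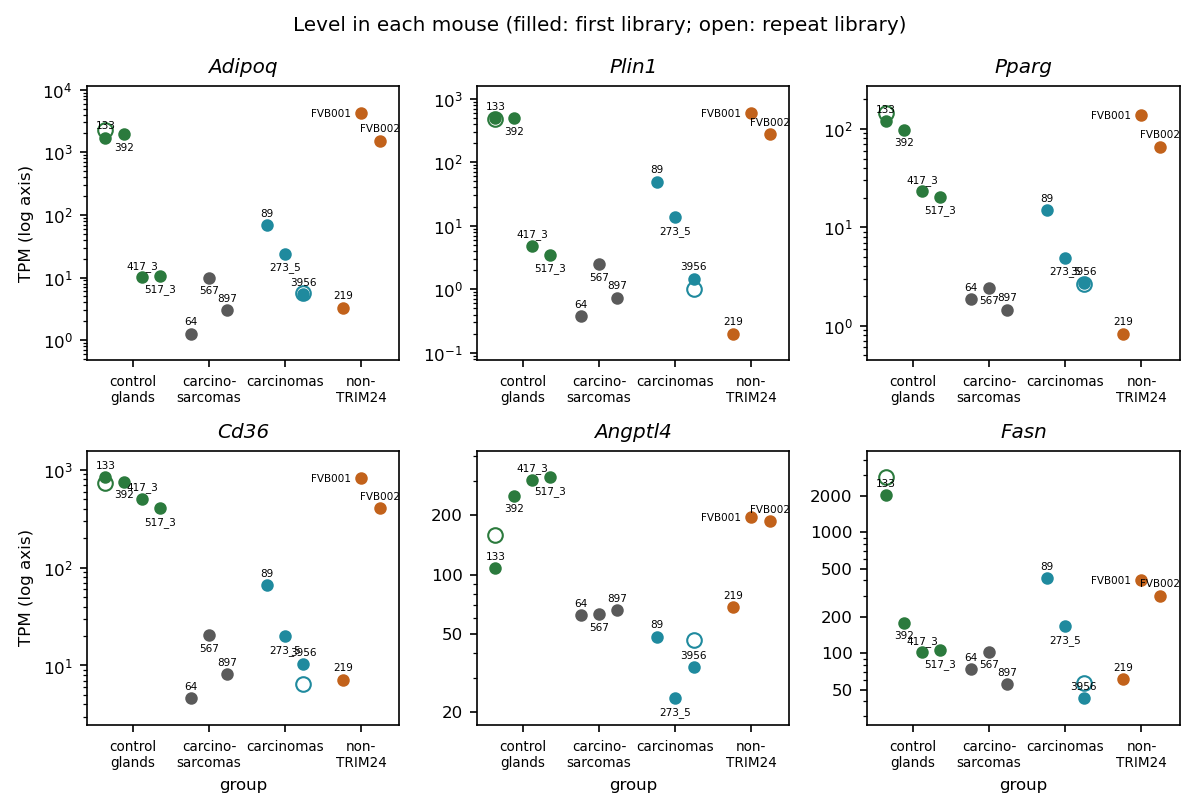
TPM on a log axis of Adipoq, Plin1, Pparg, Cd36, Angptl4 and Fasn in each mouse by group, with filled points for the first library and open points for the repeat library of mice 133 and 3956. The glands split by over 100-fold for Adipoq and Plin1, lie close together for Cd36, and are in the opposite order for Angptl4, while gland 133 stands alone for Fasn.

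In triglyceride synthesis, lipin 1 (Lpin1), a phosphatidate phosphatase that also acts in the nucleus, was 37.2, 19.9, 33.1 and 18.6 TPM in glands 133, 392, 417_3 and 517_3, 1.32, 3.23 and 1.35 TPM in the carcinosarcomas and 8.44, 4.26 and 3.39 TPM in the carcinomas. The gland levels were all above every tumor (log2 fold change -2.71, standard error 0.41, adjusted p = 0.00196). Dgat2, which adds the last fatty acid to triglyceride, was 792, 352, 46 and 43.4 TPM in the glands and 2.55 to 92.6 TPM in the tumors, and fell by 3.83 on the log2 scale (adjusted p = 0.0259). The other acyltransferases gave smaller differences: Dgat1 was 135, 159.8, 25.8 and 23.2 TPM and 19.2 to 42.3 TPM, and Agpat2 was 374, 198, 20.4 and 21.3 TPM and 20.1 to 135 TPM. Gpd1, which makes glycerol 3-phosphate from a glycolytic intermediate, reached 220.1 TPM in carcinoma 89, above glands 392, 417_3 and 517_3 at 168, 22.6 and 20.9 TPM. Pck1, which supplies glycerol 3-phosphate from pyruvate, was 256, 409, 5.59 and 5.11 TPM in the glands and 0.11 to 43.4 TPM in the tumors, and neither Gpd1 nor Pck1 passed the test (adjusted p = 0.182 and 0.165).

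Of the lipolysis genes, monoglyceride lipase (Mgll), which acts last, was 451, 523, 121 and 125 TPM in the glands, 16.4, 23.4 and 11.8 TPM in the carcinosarcomas and 42.3, 16.8 and 13.5 TPM in the carcinomas, so that no tumor reached any gland (log2 fold change -3.63, standard error 0.49, adjusted p = 0.00116). Pnpla2 (adipose triglyceride lipase), which acts first, was 810.3, 779, 158 and 147 TPM in the glands and 15.1 to 187 TPM in the tumors (log2 fold change -2.99, standard error 0.71, adjusted p = 0.0169), with carcinoma 89 above glands 417_3 and 517_3. Hormone-sensitive lipase (Lipe) was 357, 479, 37.8 and 34.9 TPM and 5.72 to 53.6 TPM (adjusted p = 0.0265). The beta-3 adrenergic receptor (Adrb3), which starts lipolysis in fat cells, was 194, 147, 1.19 and 1.11 TPM in the glands and 0.09 to 13.9 TPM in the tumors and did not pass (adjusted p = 0.148). For both Lipe and Adrb3, carcinoma 89 was again the highest of the tumors.

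For the genes of fatty acid synthesis gland 133 stood well above gland 392, an order also seen for Ucp1 (18.3-fold), Cidea (5-fold) and, to a lesser degree, Gpd1, Dgat2 and Srebf1 (2.22-fold to 2.75-fold). Fatty acid synthase (Fasn) was 2045, 179, 101 and 106 TPM in glands 133, 392, 417_3 and 517_3 and 2854 TPM in the repeat library of gland 133. It was 74.2, 103 and 55.1 TPM in the carcinosarcomas, 420.0, 167 and 42.3 TPM in the carcinomas and 60.8, 404 and 299 TPM in tumors 219, FVB001 and FVB002. Carcinoma 89 therefore held more Fasn RNA than 3 of the 4 glands. Stearoyl-CoA desaturase (Scd1) was 6276, 1436, 99.9 and 74.3 TPM in the glands, 30.6, 43.1 and 19.2 TPM in the carcinosarcomas and 736, 407 and 7.54 TPM in the carcinomas, and carcinoma 3956 was the lowest of all 13 mice. Acetyl-CoA carboxylase (Acaca), which commits acetyl-CoA to synthesis, was 118, 13.2, 31.9 and 14.7 TPM, 3.96, 5.03 and 5.51 TPM and 46.5, 27.4 and 8.85 TPM in the same groups. ATP citrate lyase (Acly), which makes cytosolic acetyl-CoA, overlapped between all groups, at 253, 32.2, 129 and 98 TPM, 54, 99.8 and 65.6 TPM and 159, 70 and 101 TPM.

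Thrsp (Spot 14), a nuclear protein tied to lipogenesis in fat, liver and mammary epithelium, ranged most widely of this role over the glands and Trim24COE tumors, with 2265, 306, 52.3 and 59.8 TPM in the glands, 0.75, 8.17 and 1.16 TPM in the carcinosarcomas and 355, 236 and 3.63 TPM in the carcinomas. The fatty acid elongase Elovl6 was 65.7, 4.42, 9.16 and 6.54 TPM in the glands and 2.43 to 23.4 TPM in the tumors. Malic enzyme (Me1), a source of NADPH, was 274, 60.8, 50.5 and 37.7 TPM and 11.2 to 78.1 TPM. In all 7 genes the level of gland 133 was above that of gland 392, by 4.37-fold (Scd1) to 14.9-fold (Elovl6), and for none of the 7 did the difference between Trim24COE tumors and glands pass the test. The fitted values were log2 fold change -1.26, standard error 0.87, adjusted p = 0.338 for Fasn, log2 fold change -1.38, standard error 0.76, adjusted p = 0.233 for Acaca, log2 fold change -0.23, standard error 0.49, adjusted p = 0.783 for Acly and log2 fold change -2.99, standard error 1.5, adjusted p = 0.193 for Scd1. The direction for Acly turned without gland 133.

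The brown fat genes were high in some samples of 3 groups. Uncoupling protein 1 (Ucp1), which defines the brown or beige adipocyte, was 139, 7.58, 0.37 and 0.22 TPM in glands 133, 392, 417_3 and 517_3, and 196 TPM in the repeat library of gland 133. It was 0.07, 0.1 and 0.04 TPM in carcinosarcomas 64, 567 and 897, 135, 73.2 and 0.82 TPM in carcinomas 89, 273_5 and 3956, and 0.05, 1.84 and 36.2 TPM in tumors 219, FVB001 and FVB002. Carcinoma 89 thus lay near gland 133 in its Ucp1 level, and carcinoma 273_5 above the other 3 glands, while both had far less Adipoq than gland 133. Ucp1 was 198% of the Adipoq level in carcinoma 89, 307% in carcinoma 273_5 and 15% in carcinoma 3956, compared with 8.08% in gland 133, 0.39% in gland 392 and 0.0426% in tumor FVB001. Cidea, a droplet protein of brown fat that mammary epithelium also makes, was 162, 32.5, 3.79 and 4.28 TPM in the glands, 0, 0.7 and 0.24 TPM in the carcinosarcomas, 121, 41 and 3.43 TPM in the carcinomas and 7.76, 8.34 and 40.9 TPM in the non-TRIM24 tumors. The 0 is a gene listed at 0 in carcinosarcoma 64.

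Ppargc1a, the coactivator of mitochondrial genes, was low in every library, at most 2.69 TPM in gland 133, but among the tumors it too passed 1 TPM only in carcinomas 89 (1.33 TPM) and 273_5 (1.08 TPM). Elovl3, a fatty acid elongase of brown fat, and Cpt1b, the carnitine palmitoyltransferase of muscle and brown fat, are not members. They were picked after their values were seen because they resembled Ucp1, so their likeness to it carries no weight. Elovl3 was 5.8, 7.48 and 0 TPM in carcinomas 89, 273_5 and 3956 and 4.16, 0.34, 0.03 and 0.13 TPM in the glands. Cpt1b was 17.3, 5.03 and 2.19 TPM and 15.1, 2.85, 1.09 and 0.62 TPM. The repeat library of gland 133 had 5.44 TPM of Elovl3 and 24.5 TPM of Cpt1b, the latter above carcinoma 89, and tumor FVB002 had 5.36 TPM of Cpt1b. Other genes known from brown fat did not share this order. Prdm16, a transcriptional regulator of brown fat, was 2.85, 0.07 and 0.07 TPM in carcinomas 89, 273_5 and 3956 and highest in gland 417_3 (7.92 TPM). Dio2, which activates thyroid hormone, was 2.13, 0.89 and 0.36 TPM there and highest in carcinosarcoma 897 (14.4 TPM). The test of Ucp1 between all Trim24COE tumors and glands gave a log2 fold change of -0.33 with a standard error of 1.79 (adjusted p = 0.921), and that of Cidea -1.68 with 1.5 (adjusted p = 0.468).

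**Figure D4:**
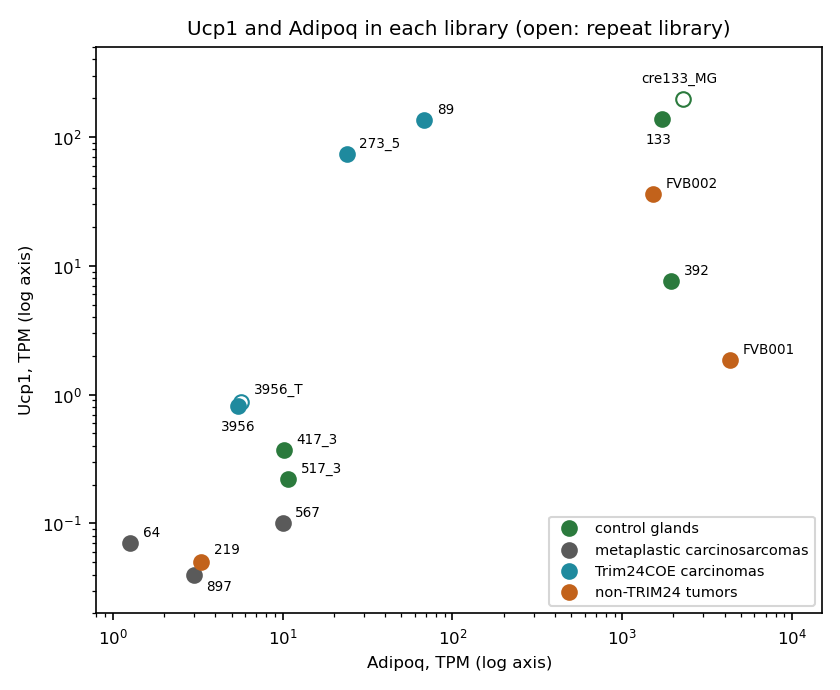
Ucp1 against Adipoq in each of the 15 libraries, both as TPM on log axes and coloured by group. Carcinomas 89 and 273_5 have 135 and 73.2 TPM of Ucp1 at an Adipoq level of 68.2 and 23.8 TPM, while tumor FVB001 has the most Adipoq with 1.84 TPM of Ucp1.

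By class, the metaplastic carcinosarcomas had a median log2 fold change of -3.91 over the members tested against the control glands, beside -0.12 over all genes, and the carcinomas one of -2.17, beside 0.02. For the carcinosarcomas, of 37 members tested (Ucp1 and Ppargc1a were under the minimum), 17 were lower and none higher, beside 13.1% of all genes called lower and 9.83% higher. Every carcinosarcoma was below every gland for 30 of the 39 members, an order that 21.6% of all genes tested showed. Cd36 had the smallest adjusted p (log2 fold change -5.88, standard error 0.47, adjusted p = 0.00064). Lpin1 (log2 fold change -3.25, standard error 0.37, adjusted p = 0.00171), Retsat (log2 fold change -1.62, standard error 0.25, adjusted p = 0.0044) and Mgll (log2 fold change -3.80, standard error 0.59, adjusted p = 0.00463) came next. Fabp4 (log2 fold change -5.37, standard error 0.95, adjusted p = 0.00741) and Acsl1 (log2 fold change -3.61, standard error 0.71, adjusted p = 0.0109) were also lower, as were Pnpla2 (log2 fold change -3.83, standard error 0.71, adjusted p = 0.00901) and Dgat2 (log2 fold change -4.88, standard error 1.03, adjusted p = 0.0138). Srebf1 fell by 2.21 on the log2 scale (standard error 0.36, adjusted p = 0.00538), with 19.2, 34.1 and 16.7 TPM in carcinosarcomas against 67.8 TPM in the lowest gland, and Pparg by 4.11 (standard error 0.65, adjusted p = 0.00509). The lipogenic genes Thrsp (-6.06, adjusted p = 0.0144) and Acaca (-2.40, adjusted p = 0.041), with Gpd1 (-4.91, adjusted p = 0.0156) and Cidea (-3.91, adjusted p = 0.0438), were called too. Acaca and Cidea stayed called in only 3 of the 7 fits that left out 1 mouse, and Thrsp and Gpd1 in 5. Cd36, Lpin1, Retsat, Mgll, Fabp4, Pnpla2, Srebf1 and Pparg stayed called in all 7. Adipoq, Plin1 and Cidec again had large fitted differences that did not pass (-4.96, -4.64 and -4.88, adjusted p = 0.111, 0.0982 and 0.0796). Fasn, Acly and Scd1 had -1.73, -0.51 and -4.07 (adjusted p = 0.238, 0.589 and 0.0777). The remaining 3 called were Angptl4, Aqp7 and Lipe. Markers of other cells moved as well: 6 of 8 luminal and 3 of 6 basal markers were called lower in carcinosarcomas, the luminal ones with summed levels of 302 to 1412 TPM, and 4 of 6 fibroblast markers were called higher, at 1695 to 5724 TPM against 514 to 1176 TPM in the glands. Of the macrophage markers 4 of 6 were called higher, and of the endothelial markers 1 of 6 lower. Their part in the members' differences was not tested. The count was 8 without carcinosarcoma 64, 10 without 897 and 21 with 417_3 and 517_3 as 1 gland.

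The carcinomas, compared with the same glands, had 4 of 39 members lower and none higher, beside 1.92% of all genes called lower and 1.58% higher. These were Cd36 (log2 fold change -4.59, standard error 0.58, adjusted p = 0.0144), Angptl4 (log2 fold change -2.70, standard error 0.43, adjusted p = 0.0225), Lpin1 (log2 fold change -2.17, standard error 0.40, adjusted p = 0.0297) and Mgll (log2 fold change -3.46, standard error 0.65, adjusted p = 0.0332). Every carcinoma was below every gland for 9 members, and 10.7% of all genes tested showed that order. Among the 4 called, Cd36 alone stayed called whichever of the 7 mice was dropped, and with 417_3 and 517_3 as 1 gland the count was 1. With no filter on low values none of the 39 was called by limma (10 at an unadjusted p under 0.05, and an adjusted p of 0.0569 for Cd36), and with the 3 groups fitted together 7 were. Leaving out gland 417_3 or 517_3, or carcinoma 273_5 or 3956, likewise gave 1, and leaving out gland 133 gave 2. Fabp4 and Pparg had fitted values of -4.24 and -2.82 (adjusted p = 0.0914 and 0.0865), and Adipoq, Plin1 and Cidec -2.70, -2.05 and -2.37 (adjusted p = 0.513, 0.611 and 0.515). Of the synthesis genes, Fasn had -0.80, Acaca -0.37, Acly 0.04 and Scd1 -1.90, with adjusted p from 0.638 to 0.98. Beside them, 2 of 6 macrophage markers were called higher, and 2 of 6 endothelial, 1 of 6 basal and 1 of 6 lymphocyte markers lower, and their part was not tested. Both classes share their control glands, so these 2 sets of values are not independent.

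The tumors labelled carcinoma were not alike in these genes, and the study's pathologists differed on the class of 89 and 3956. Carcinoma 89 was the highest of the 6 Trim24COE tumors for 35 of 39 members, against 25.9% of the 16775 genes. Carcinoma 273_5 was second for 26, an order not counted over all genes. Carcinoma 3956 lay within the range of the carcinosarcomas for both Adipoq and Plin1, with 5.45 TPM of Adipoq and 1.47 TPM of Plin1. Its repeat library gave 5.69 and 1.01 TPM. The 4 members that carcinoma 89 did not lead were Srebf1, highest in 273_5, Me1, highest in carcinosarcoma 64, Nnat, highest in 567, and Angptl4, highest in 897. Basal epithelial markers also differed between the carcinomas, summing to 3524 TPM in 89 and to 144 and 171 TPM in 273_5 and 3956.

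When the classes were compared with each other, none of 34 members tested passed in limma, while 16 had an unadjusted p under 0.05, and 0.698% of all genes tested were called in either direction. Every carcinosarcoma was below every carcinoma for 10 members (Cidea, Ucp1, Pparg, Pnpla2, Acaca, Dgat2, Pck1, Agpat2, Lpin1 and Srebf1, Ucp1 being under the minimum for the test), an order shown by 14.4% of all genes tested. The smallest adjusted p was that of Cidea (0.169), whose levels of 0, 0.7 and 0.24 TPM in the carcinosarcomas lay below the 121, 41 and 3.43 TPM of the carcinomas. Adipoq, Plin1, Cidec, Fabp4 and Pparg had fitted differences of -2.27, -2.59, -2.52, -1.14 and -1.29, and Fasn, Acaca, Acly and Scd1 of -0.93, -2.03, -0.55 and -2.17, carcinosarcomas minus carcinomas, with adjusted p from 0.205 to 0.598. Without carcinoma 3956, 9 members were called, and the 0.698% of all genes given above does not belong to that fit.

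The non-TRIM24 tumors spanned nearly the whole range of the series. Tumors FVB001 and FVB002 were both above every Trim24COE tumor for 28 of 39 members, while 12.5% of the 16775 genes showed that order. The exceptions were Cidea, Ucp1, Ppargc1a, Srebf1, Gpd1 and 6 of the 7 synthesis genes, all but Scd1. Tumor FVB001 held 4315 TPM of Adipoq, 25416 TPM of Fabp4 and 4590.1 TPM of Retn, more than any gland. It was the highest of all 13 mice for 18 members, and the share of all genes with that order was not counted. Tumor 219 had 3.31 TPM of Adipoq, within the range of the Trim24COE tumors, and 0.2 TPM of Plin1 and 0.83 TPM of Pparg, both below that range. It lay within the range for 29 members, and 55.1% of the 16775 genes did so too. So the label of spontaneous tumor did not go with a single level of adipocyte RNA.

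Between non-TRIM24 tumors and control glands, in a fit of all 15 libraries with a batch term and the mouse as a block, limma called none of 39 members, 2 (Angptl4 and Acly) had an unadjusted p under 0.05, and 0.709% of all 16775 genes tested were called. The fitted values for Adipoq, Plin1, Cidec, Fabp4 and Pparg were 0.76, 0.32, 0.65, -0.65 and -1.13, with standard errors from 1.21 to 2.38, and those for Fasn, Acaca, Acly and Scd1 were -0.86, -0.72, -1.25 and 1.23. Adjusted p for these 9 ran from 0.251 to 0.956.

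Between Trim24COE tumors and non-TRIM24 tumors, 1 of 39 members was lower in the Trim24COE tumors and none higher, beside 0.566% of all genes called lower and 1.7% higher, and 21 members had an unadjusted p under 0.05. The gene was Srebf1, at 19.2, 34.1 and 16.7 TPM in carcinosarcomas, 73.2, 108 and 39.8 TPM in carcinomas and 259, 99.3 and 194 TPM in tumors 219, FVB001 and FVB002 (log2 fold change -1.91, standard error 0.41, adjusted p = 0.0385). Carcinoma 273_5 overlapped tumor FVB001, and the adjusted p rose above 0.05 in 8 of the 13 fits that left out 1 mouse, up to 0.144 without FVB002. Srebf1 was the one member highest in tumor 219, in which Adipoq, Plin1 and Pparg were lowest among the non-TRIM24 tumors. Without tumor 219, 19 members were called and Srebf1 was not among them. The shares of all genes given above belong to the fit of all mice, so the 19 cannot be set against them. Adipoq, Plin1, Cidec, Fabp4 and Pparg had fitted differences of -4.66, -3.73, -4.33, -4.22 and -2.38 in the fit of all mice, and Fasn, Acaca, Acly and Scd1 of -0.44, -0.72, 0.99 and -4.34, with adjusted p from 0.121 to 0.815. All non-TRIM24 tumors are in batch 2, where 1 Trim24COE tumor (the repeat of 3956) and 1 control gland (the repeat of 133) were sequenced, so within that batch the other side of each comparison is a single library, and no within-batch fit was made. In the repeat library of 3956 the Srebf1 level was 43.3 TPM. The repeat libraries bear on the size of the batch difference: over the 39 members the median ratio of repeat to first library was 1.13 for gland 133 (0.584 to 1.48) and 0.931 for carcinoma 3956 (0 to 1.38), with 0 and 3 of the 39 more than 2-fold apart.

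A list of 50 other genes of lipid metabolism was read beside the members. Of 46 tested between Trim24COE tumors and control glands, 8 (17.4%) were lower and none higher, beside 9.13% of all genes called lower, and their median log2 fold change was -0.92, beside -0.04. Insig1, Aoc3 and Slc2a4 were among those with the smallest adjusted p. Insig1, which retains the SREBP precursor in the endoplasmic reticulum, was 106, 39.8, 65.6 and 47.7 TPM in glands 133, 392, 417_3 and 517_3 and 16 to 29.9 TPM in the Trim24COE tumors (log2 fold change -1.48, standard error 0.29, adjusted p = 0.00737). Aoc3, an amine oxidase of the adipocyte surface, was 228, 233, 15.5 and 11.2 TPM and 1.33 to 13.2 TPM (log2 fold change -3.52, standard error 0.89, adjusted p = 0.0213). The insulin-responsive glucose transporter Slc2a4 (GLUT4) was 113, 71.7, 11.1 and 9.34 TPM and 0.11 to 19.4 TPM (log2 fold change -3.19, standard error 0.90, adjusted p = 0.0329). In carcinosarcomas against glands 11 of 44 (25%) were lower and none higher, beside 13.1% of all genes called lower, and in the other 4 comparisons none passed in limma, with 4 to 10 genes at an unadjusted p under 0.05.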

How the data were processed

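The deposited tables hold gene-level TPM values for 15 mouse mammary libraries of 13 mice. According to the study's methods, the authors trimmed reads with Trimmomatic, aligned them to GRCm38 with STAR and estimated TPM with RSEM and a GENCODE annotation, while the labels also list other tools. The TPM total is fixed, so a few very abundant adipocyte genes lower all others, and sequencing depth, and with it counting error, is unknown. Groups came from the labels. The members and lists were chosen with earlier results of these data known.

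Differences were tested on log2(TPM + 1) with limma 3.58.1 in R 4.3.3 (trend, two-sided, Benjamini-Hochberg adjustment over all genes tested, threshold 0.05). A gene was tested if it reached 1 TPM in a number of libraries equal to the mice of the smaller group. Fold changes on this scale understate those of low genes. Repeat libraries stayed out of comparisons among batch 1 groups. Those with non-TRIM24 tumors used all 15 libraries, a batch term and the mouse as a block (correlation 0.951), so repeats are not extra mice. Where mouse 133 or 3956 was dropped, that correlation was kept. The fits were run on simulated data with the same spread between mice for every gene. This checks the code and does not give error rates for the members, whose spread differs widely. Columns of the tables that belong to no sample number 0.

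Full statistics are given for up to 10 called members per comparison, by adjusted p, and for Adipoq, Plin1, Cidec, Fabp4, Pparg, Fasn, Acaca, Acly and Scd1, and for up to 4 other lipid genes per direction. One gene that this rule names is not reported here. Motifs were searched in the RefSeq promoter table. Alternatives were the value added before logs, the filter, quantile normalization, dropping each mouse, the use of repeat libraries, the groups in the fit and the batch term. Glands 417_3 and 517_3 as 1 gland was added after the data were seen.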

Additional observations from a re-analysis of the deposited data

Results flagged for a closer look

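Leptin (Lep) stood apart in carcinoma 89. Its level there was 5.5 TPM, while the other 5 Trim24COE tumors lay between 0.17 and 0.83 TPM, and on the log2(TPM + 1) scale the gap to the next tumor was 0.739 of the whole range of the 6. This was 1 of 78 sets of values examined for a single distant library (39 genes in the control glands and in the Trim24COE tumors), and chance passes the threshold used in about 1 of 20 sets. Carcinoma 89 was also the highest of these tumors for 34 other members.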

How the results depend on the processing

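Depth is unknown, each group holds 3 to 6 mice, and p-values measure only the spread between these mice. For all Trim24COE tumors against glands, the 15 members called became 9 to 18 with each mouse left out in turn. The 17 of carcinosarcomas against glands became 8 to 24, and 10 with no filter. The 4 of carcinomas against glands became 1 to 4, 0 with no filter (limma, 10 at an unadjusted p under 0.05), 7 with the 3 groups fitted together and 1 with 417_3 and 517_3 as 1 gland. Carcinosarcomas against carcinomas gave 0 to 9 (at least 6 at an unadjusted p under 0.05), and non-TRIM24 tumors against glands 0 in every fit, with 1 to 3 members at an unadjusted p under 0.05. Trim24COE against non-TRIM24 tumors gave 1 in the reported fit, 0 to 19 with each mouse left out (0 without 64, 567, 897, 89, 3956, 517_3 or FVB002), 0 with no filter (11 at an unadjusted p under 0.05), 4 with no batch term and 0 with libraries of a mouse as separate (5). In each case the cause was not tested, and the shares of all genes called in these other fits are not given beside the counts.

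Values that turned sign had not passed the test. With each mouse left out, Acly ran from -0.77 to 0.21 (log2) for all tumors against glands. For carcinomas against glands Fasn ran from -1.56 to 0.21, Acaca from -0.87 to 0.29, Acly from -0.50 to 0.48 (and -0.13 with quantile normalization) and Scd1 from -3.12 to 0.10. For non-TRIM24 tumors against glands, Adipoq ran from -1.15 to 3.83, Plin1 from -1.37 to 3.13, Cidec from -1.20 to 3.41, Fabp4 from -2.10 to 1.77, Pparg from -2.35 to 0.78, Fasn from -1.39 to 0.32 and Acaca from -1.09 to 0.24. There, libraries of a mouse as separate gave -0.69 for Adipoq, -0.78 for Plin1 and -0.44 for Cidec, 417_3 and 517_3 as 1 gland gave -0.44, -0.76 and -0.40, and 0.1 TPM added gave -0.11 for Plin1. For Trim24COE against non-TRIM24 tumors Fasn ran from -1.27 to 0.16. No paired analysis was possible because mice of different groups share only a number given in accession order.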
